A study of Mus musculus with 4 samples.

Results

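Epithelial keratins and junction genes were read on 4 expression arrays as a gauge of epithelial cells in cultures of mouse embryonic fibroblasts (MEFs). The 10 genes were the keratins Krt8, Krt18, Krt19 and Krt7, the claudins Cldn4 and Cldn1, the junction scaffold Tjp1, the polarity gene Llgl2, the cadherin Cdh1 and the surface molecule Epcam. They were chosen by their role in epithelium and with their KO minus WT values on these arrays already known, so those differences between genotypes are a description and support nothing beyond it. All probes that the platform annotation gave to these genes were taken. Of the 10 genes, 9 had a probe, 1 each, out of 23978 probes with a gene name among 25697 on the array. Epcam had no named probe and was not analysed here. On the whole array 16593 genes had a named probe.

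The KO group held 2 MEF lines of genotype H3f3b -/-, which lacked the coding exons of H3f3b in all cells, and the WT group held 2 H3f3b WT/WT lines. The null allele had been made with a germline Cre (Zp3-Cre, active in the oocyte), and the embryos came from crosses between heterozygous mice. All 4 lines came from littermate C57BL6J embryos, 12.5 days after mating, and had been transduced with a stable pBabe puro vector. Before the tissue was dissociated, the head and visceral organs had been taken out. Total RNA of each line was put on 1 Illumina MouseRef-8 bead array. H3f3b, which encodes the histone variant H3.3, was not detected in the KO lines (signals 97.3 and 98.7) and was bright in the WT lines (1736 and 1686).

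Epithelial cells are joined into sheets. Keratins form their intermediate filaments, in which a type II keratin such as Krt8 or Krt7 must pair with a type I keratin such as Krt18 or Krt19. Claudins span the membrane and close the tight junction, Tjp1 (ZO-1) anchors them to actin, Cdh1 (E-cadherin) holds neighbouring cells together at adherens junctions, and Llgl2 marks the basolateral side. Fibroblasts use vimentin filaments and largely lack Cdh1, while Tjp1 and low levels of simple keratins are found in many cells that are not epithelial.

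The signals lay close to background. A probe was called detected where its detection p, the share of negative control probes on that array that were brighter, was under 0.05. The KO arrays were brighter throughout: probes with a detection p of at least 0.5 had a median of 97.1 and 94.6 on the KO arrays, against 80.9 and 84.4 on the WT arrays, so a signal is read against the background of its own array. Signals were background-corrected and brought to 1 distribution (log2 units), and the dimmest value called detected was then 4.78 and 4.80 on the KO arrays, against 4.81 and 4.83 on the WT arrays. The 2 KO arrays detected 7 and 5 of the 9 genes, and the 2 WT arrays detected 4 and 5. Only Llgl2 and Cldn1 were detected on all 4 arrays. Cdh1 was detected on none. In RNA from whole cultures, fewer cells of a type and less RNA per cell cannot be told apart.

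**Figure D1:**
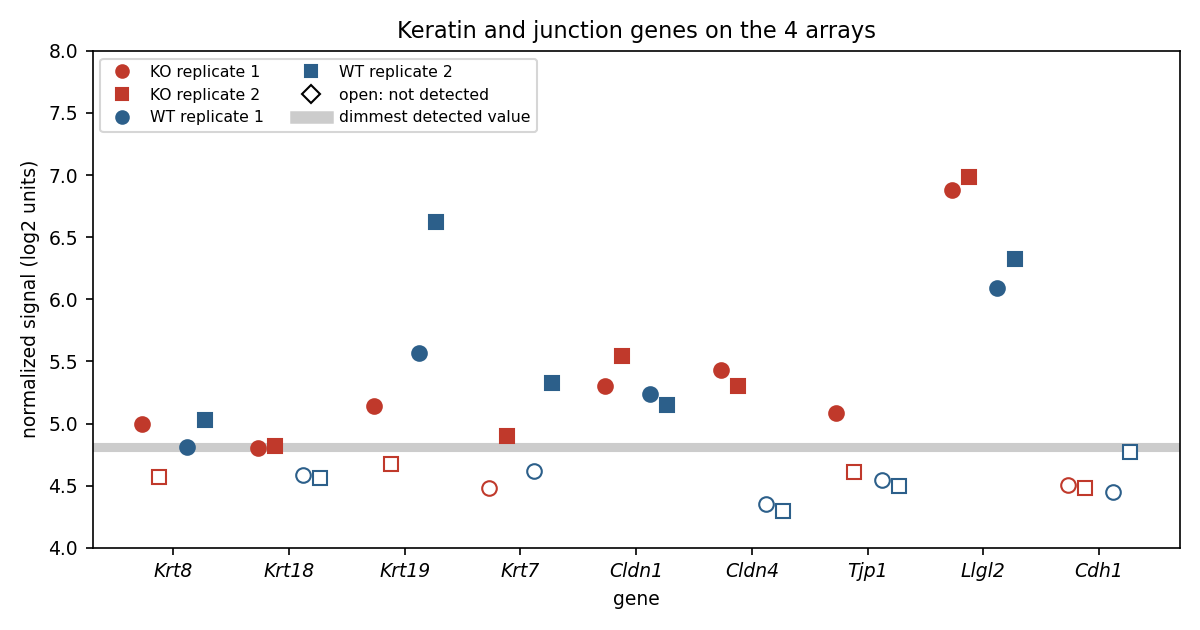
Normalized signal (log2 units) of 9 keratin and junction genes on each of the 2 KO arrays (red) and 2 WT arrays (blue). Filled symbols were detected, open symbols were not, and the grey band spans the dimmest detected values of the arrays. Llgl2 lies above 6 on every array, Cldn4 is above the band in KO and below it in WT, and Cdh1 is below the band throughout.

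Among the keratins of the set, the highest signal over background was that of Krt19 in WT replicate 2. Krt19 is a type I keratin of simple and ductal epithelium. Its deposited signals were 124 and 109 in KO and 111 and 158 in WT, or 1.28 and 1.15 times the background median for KO and 1.37 and 1.87 times for WT. The normalized values were 5.14 and 4.68 in KO, the second of them not detected, and 5.57 and 6.63 in WT. Both KO values were below both WT values, but the WT lines differed by about as much as the genotypes did. Krt19 averaged 4.91 ± 0.33 in KO and 6.10 ± 0.75 in WT (SD, n = 2 each). The difference was -1.19 ± 0.35 log2 units (SE). Leaving out WT replicate 2 brought it to -0.68, and it was -0.69 with a larger offset, -0.47 without background correction and -0.57 in the table scaled by the authors.

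Krt8, Krt18 and Krt7 were at the limit of detection. Krt8, the type II partner of Krt18, had signals of 120.1 and 106 for KO and 94.5 and 102 for WT. Its normalized values of 5.0 and 4.57 in KO and 4.81 and 5.03 in WT overlapped, and it was undetected in KO replicate 2. The difference of Krt8 was -0.14 ± 0.21. Krt18, the type I partner, gave 115 and 113 in KO, both just detected (detection p of 0.0451 and 0.0426), and 89.8 and 92.8 in WT, neither detected. Its normalized values were 4.80 and 4.82 in KO, with 4.58 and 4.56 in WT. The groups of Krt18 did not overlap, and the difference was 0.24 ± 0.17. Because the mean of the KO values lay no higher than the mean of the dimmest detected values of the WT arrays, no fold is given. Krt7, a type II keratin of simple and glandular epithelium, gave 105 and 115 in KO and 90.6 and 108 in WT, and was detected in KO replicate 2 and in WT replicate 2. Krt7 values of 4.48 and 4.90 in KO and 4.62 and 5.33 in WT overlapped, with a difference of -0.29 ± 0.28. None of the 3 was detected on all arrays, and the direction of each turned under at least 1 alternative: Krt8 was 0.074 without KO replicate 2, Krt7 was 0.072 without WT replicate 2, and Krt18 was -0.062 in the table scaled by the authors.

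Of the claudins, Cldn4 was detected in KO alone and Cldn1 on every array. Cldn4, a sealing claudin of tight epithelia, had signals of 133 and 127 in KO, where both arrays detected it (detection p of 0.00251 on each), and 82.8 and 83.3 in WT, where it was at background (detection p of 0.581 and 0.811). Normalized, these were 5.43 and 5.30 in KO, with 4.36 and 4.29 in WT. The KO lines were close to each other and far from the WT lines. Cldn4 averaged 5.37 ± 0.09 in KO and 4.32 ± 0.04 in WT (SD, n = 2 each), and the fitted difference was 1.04 ± 0.17. On this scale, with background corrected and an offset of 16, Cldn4 was at least 1.46-fold higher in KO than the dimmest detected value of the WT arrays, a bound that does not carry over to other scales. Its difference was smaller by over 1.5 times with a larger offset (0.48), without background correction (0.40) and in the table scaled by the authors (0.27), with the same direction. Over all 25697 probes, 206 (0.802%) were detected on both KO arrays and neither WT array, and 115 (0.448%) the other way round. Cldn4 and Krt18 were both of the first kind, and so passed the filter on detection only through the KO arrays.

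Cldn1, a claudin required for the barrier of the epidermis, was detected on every array, with signals of 129 and 135 in KO and 103 and 104 in WT. Its normalized values were 5.30 and 5.54 in KO and 5.23 and 5.15 in WT, which is a gap of less than the distance between the KO lines. The difference of Cldn1 was 0.23 ± 0.18. Tjp1, the scaffold beneath the claudins, had signals of 122.5 and 107 in KO and 88.9 and 91.2 in WT and was detected in KO replicate 1 alone. Both KO values lay above both WT values. Its normalized values of 5.09 and 4.61 in KO and 4.55 and 4.50 in WT differed by 0.33, mostly through that array: without KO replicate 1 the difference was 0.08. In the table scaled by the authors the differences of Krt18, Cldn1 and Tjp1 turned to -0.062, -0.032 and -0.037. In that table no background was subtracted, and the median of undetected probes was lower in KO (85.8 and 83.6) than in WT (93.8 and 96.6).

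Llgl2 was the member most clearly above background. It encodes a homologue of the fly tumour suppressor lethal giant larvae, which keeps apical proteins out of the basolateral membrane. Its signals were 219.5 and 228.5 in KO and 128 and 142 in WT, with a detection p of 0 on all 4 arrays. These were 2.26 and 2.42 times the background median in KO and 1.59 and 1.68 times in WT. Normalized values were 6.88 and 6.98 in KO and 6.09 and 6.33 in WT, with no overlap and with a gap that was larger than the distance within either genotype. Llgl2 averaged 6.93 ± 0.08 in KO and 6.21 ± 0.17 in WT (SD, n = 2 each), a difference of 0.72 ± 0.18. It was 0.39 without background correction and 0.35 in the table scaled by the authors, and between 0.61 and 0.85 when any array was left out. Cdh1, the defining cadherin of epithelium, had signals of 106 and 102.5 in KO and 86.2 and 97.1 in WT, none detected. Its values of 4.51 and 4.48 in KO and 4.45 and 4.77 in WT overlapped.

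**Figure D2:**
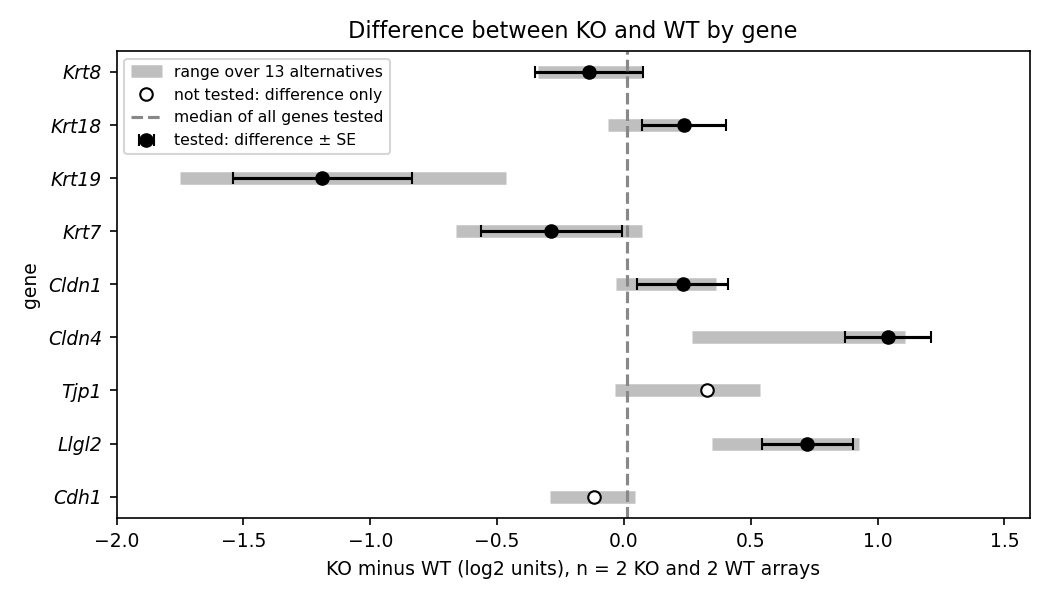
KO minus WT in log2 units for each gene (black points, with the SE of the model over 2 KO and 2 WT arrays where the probe was tested) and the range of the value over 13 alternative settings (grey bars). The dashed line is the median of all genes tested (0.01). Cldn4 and Llgl2 stayed above 0 and Krt19 below 0 under every one of these settings, while the bars of the other 6 genes crossed 0.

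Probes detected on at least 2 of the 4 arrays were tested with limma, and p-values were adjusted over all 11552 such probes by the Benjamini-Hochberg method. Of the 9 genes, 7 had a tested probe and Cdh1 and Tjp1 did not. Across 8047 genes, 1 (0.0124%) passed an adjusted p of 0.05, which was H3f3b, and 0 of the 7 did. At an unadjusted p under 0.05 limma gave 2 of the 7 higher in KO (Cldn4 and Llgl2) and 1 lower (Krt19), against 4.59% and 3.54% of all genes, or 8.13% together. Their adjusted p from limma was 0.452 for Cldn4, 0.542 for Llgl2 and 0.543 for Krt19, and over the alternatives the smallest was 0.104, 0.266 and 0.0812 in the same order. By sign alone 4 of the 7 were higher in KO, against 52.4% of all genes. Both KO arrays lay above both WT arrays in 4 of the 7 (Krt18, Cldn4, Cldn1 and Llgl2) and below them in 1 (Krt19), against 21% and 17.1% of all genes, or 38.2% together. The median difference was 0.23 over the 7 genes and 0.01 over all genes tested. Since 2 of the 7 had to be higher in KO to be tested at all, neither the counts nor the median bear on the set as a whole. Summed over the 9 genes, undetected ones included, the normalized signal came to 374 and 367 for KO, against 296 and 380.5 for WT. The groups overlapped. In WT replicate 2 the sum leaned on Krt19, the brightest of the 9 genes on that array (6.63). In KO the sums leaned on Llgl2 and Cldn4, which lay higher there. On all arrays but WT replicate 2, Llgl2 was the brightest of the 9 genes.

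The promoters of these genes were read for a motif known to be bound by repressors of epithelial genes. Zeb and Snail proteins bind the E-box letters CAGGTG, which read CACCTG on the other strand, and repress Cdh1, claudins and keratins in mesenchymal cells. Promoters of 300 bases (250 before and 50 after the start) from RefSeq, build GRCm38.p6, were matched by symbol for 7 of the 10 genes, leaving out Krt19, Cdh1 and Llgl2. Of these, 5 held the letters on either strand (Krt8, Krt18, Krt7, Cldn4 and Epcam). Among 32851 promoters of that length, 20.2% did, with 1 chromosome left out of that count. The Cldn4 promoter held 2 matches. The promoters of Cldn1 and Tjp1 held no match, and Tjp1 was detected in KO replicate 1 alone. Shown, 5′ to 3′ with the match in capitals, are Cldn4, the partner keratins Krt8 and Krt18, and Cldn1.
Cldn4 promoter, chr5:134946885-134947184, - strand: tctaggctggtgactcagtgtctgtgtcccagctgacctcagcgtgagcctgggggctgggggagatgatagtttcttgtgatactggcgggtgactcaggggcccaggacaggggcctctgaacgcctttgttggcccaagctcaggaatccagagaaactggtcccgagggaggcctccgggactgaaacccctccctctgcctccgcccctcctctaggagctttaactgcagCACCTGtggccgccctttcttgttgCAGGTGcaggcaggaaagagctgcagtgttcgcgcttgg
Krt8 promoter, chr15:102004293-102004592, - strand: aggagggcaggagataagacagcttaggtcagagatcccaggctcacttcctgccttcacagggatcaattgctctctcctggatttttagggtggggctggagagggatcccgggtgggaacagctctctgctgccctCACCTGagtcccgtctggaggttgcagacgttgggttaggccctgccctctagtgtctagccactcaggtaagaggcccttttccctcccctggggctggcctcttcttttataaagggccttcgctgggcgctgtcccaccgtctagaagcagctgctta
Krt18 promoter, chr15:102027966-102028265, + strand: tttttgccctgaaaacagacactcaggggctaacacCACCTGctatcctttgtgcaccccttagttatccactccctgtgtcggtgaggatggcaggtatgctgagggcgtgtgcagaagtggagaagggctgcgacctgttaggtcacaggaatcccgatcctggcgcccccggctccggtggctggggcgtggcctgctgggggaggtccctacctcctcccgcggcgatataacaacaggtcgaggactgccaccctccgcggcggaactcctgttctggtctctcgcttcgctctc
Cldn1 promoter, chr16:26371790-26372089, - strand: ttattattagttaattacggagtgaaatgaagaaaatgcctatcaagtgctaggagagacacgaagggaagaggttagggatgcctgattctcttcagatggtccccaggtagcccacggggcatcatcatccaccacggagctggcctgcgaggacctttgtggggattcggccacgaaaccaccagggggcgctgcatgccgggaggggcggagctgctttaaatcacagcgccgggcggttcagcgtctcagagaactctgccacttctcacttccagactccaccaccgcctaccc
A match in letters is no measured binding site. Of the factors, Zeb1, Zeb2 and Snai1 were each detected on all 4 arrays. Their KO minus WT differences were -0.28 ± 0.18, 0.44 ± 0.27 and -0.10 ± 0.25 (SE), and limma called none of them. Their action on these genes was not tested.

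Other genes of the same junctions were read from further lists. Of 22 further tight junction genes 20 had a probe, 8 were detected on no array, Ocln (occludin) and Cldn3 among them, and 6 were tested. Of the 6, 5 were higher and 1 lower in KO, against 52.4% of all genes higher, with a median of 0.35. Limma called 0, and 3 were higher at an unadjusted p under 0.05, against 4.59% of all genes. Over all 20 with a probe the median was 0.062, and with no detection filter it was 0.044. The 3 were Cgnl1 (paracingulin, 0.77 ± 0.22), Cldn12 (0.46 ± 0.17) and F11r, which encodes the junctional adhesion molecule JAM-A (0.44 ± 0.17). Cgnl1 was 0.49 without KO replicate 1. Without background correction Cgnl1 was 0.26, F11r 0.15 and the median of the 6 genes 0.12, and in the authors' scaled values they were 0.14, 0.049 and 0.015. Leaving out KO replicate 1 gave a median of 0.13. F11r had 5.59 and 5.65 in KO and 5.20 and 5.17 in WT, and Cldn12 7.71 and 7.54 in KO and 7.21 and 7.12 in WT. In both, the KO arrays lay above the WT arrays.

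Of 12 further keratins, 9 were detected on no array, including Krt5 and Krt14, the basal keratins of skin. The 3 that were tested were Krt20, an intestinal and urothelial keratin (5.31 and 5.40 in KO, 4.95 and 4.48 in WT, 0.64 ± 0.21), Krt80 (0.19 ± 0.17) and Krt10 (-0.15 ± 0.17). Krt80 and Krt10 were detected on all 4 arrays. Krt10 stood at 2.55 and 2.58 times the background median in KO and at 2.59 and 2.36 times in WT. None was called, and only Krt20 had an unadjusted limma p under 0.05, with the higher value in KO, against 4.59% of all genes. Its difference was 0.41 without WT replicate 2, 0.21 without background correction and 0.085 in the authors' scaled values. In the adherens junction and desmosome list 15 of 19 genes had a probe and 10 were tested. In KO 6 were higher and 4 lower, against 52.4% of all genes higher, with a median of 0.04 and 0 called. At an unadjusted limma p under 0.05 there was 1, Nectin2 (0.44 ± 0.18), higher in KO, against 4.59% of all genes. A dimmer pair of Nectin2 probes gave 0.12 ± 0.19 and 0.09 ± 0.17. Of 14 apicobasal polarity genes 13 had a probe and 7 were tested, 6 higher and 1 lower, against 52.4% of all genes higher. Of the 7, 0 were called and 0 had an unadjusted limma p under 0.05. The median was 0.09, and Llgl1, the paralogue of Llgl2, had 0.18 ± 0.24.

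As a gauge of epithelium, 22 markers were counted, the 10 genes among them. Of the 20 with a probe, 3 were detected on all 4 arrays (Llgl2, Cldn1 and Cldn7) and 10 on none. Those on none were Cdh1, Ocln, Cldn3, Krt5, Krt14, Prss8, Spint1, the splicing factor Esrp1 and the epithelial transcription factors Grhl2 and Ovol1. The KO arrays detected 8 and 6 of the 20 and the WT arrays 5 and 7. Summed normalized signals were 660.2 and 627 for KO against 561 and 652 for WT. Undetected probes add background to such sums. The 6 endothelium genes with a probe, detected on no array, summed to 140 and 130 for KO and 138 and 136 for WT. Both the counts and the sums overlapped between the genotypes. Of the epithelial transcription and splicing factors 2 of 10 were tested, Klf5 (-0.13 ± 0.20) and Ovol2 (0.16 ± 0.22), and of the epithelial surface genes 1 of 12, Muc1 (-0.17 ± 0.18), all with values that were not called.

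Markers of the labelled cell type were detected in all 4 cultures. All 14 mesenchyme genes with a probe, including Vim, Col1a1, Pdgfra and Thy1, were detected on all 4 arrays. In KO 3 were higher and 11 lower, against 52.4% of all genes higher, with a median of -0.079 and 0 called. Under median scaling the median was 0.00049, where that of all genes tested was 0.19. Both KO arrays lay below both WT arrays in 4 of the 14 and above them in 0, against 17.1% and 21% of all genes. At an unadjusted limma p under 0.05 there were 2, both lower in KO, against 3.54% of all genes. They were Twist1, a mesodermal transcription factor (7.91 and 8.26 in KO, 8.92 and 8.81 in WT, -0.78 ± 0.19), and Prrx1, a limb mesenchyme homeobox gene (8.14 and 7.96 in KO, 8.79 and 8.63 in WT, -0.66 ± 0.18). Without WT replicate 2 the mesenchyme median was -0.38, and without WT replicate 1 it was 0.054. Mesothelium, the lining of the body cavities, also makes Krt8, Krt18 and Krt19. Of its 9 markers 8 had a probe, 4 were detected on no array (Msln, Upk1b, Lrrn4 and Tbx18) and 0 on all 4. Wt1 was detected on 1 KO and 1 WT array (0.10 ± 0.20), and Upk3b, Bnc1 and Gpm6a on 1 array each. Summed over the 8, undetected ones included, the signals were 195 and 186 for KO against 201 and 175 for WT. None of the 6 endothelium markers with a probe was detected on any array.

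Macrophage markers were present in all 4 cultures. All 6 with a probe were detected on all 4 arrays and had a higher mean in KO, and limma called 0 of them. Both KO arrays lay above both WT arrays in 5 of the 6, against 21% of all genes, and 3 had an unadjusted p under 0.05 with the higher value in KO, against 4.59%. The median difference was 0.56, with 0.90 when WT replicate 1 was left out and 0.37 when WT replicate 2 was. Their normalized signals summed to 17923 and 13612 for KO against 11993 and 10576 for WT. The difference was largest in size in the complement gene C1qb, which gave 11.46 and 10.86 in KO against 10.46 and 10.09 in WT. The part of these cells in the values of Cldn4 and Llgl2 was not tested.

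The pattern of Krt19, the member with the widest range over the arrays (1.95 log2 units), was set against the other 8046 genes tested. By the Euclidean distance between log2 values centred on their own mean over the 4 arrays, the 5 nearest genes were Phf11d (0.12), Lgals3bp (0.14), Samd9l (0.17), Shfl (0.21) and Gbp2 (0.22). Gbp2 had 7.28 and 7.10 in KO and 7.79 and 8.96 in WT. In all 5, as in Krt19, WT replicate 2 was the highest array and KO replicate 2 the lowest. The 5 were picked for likeness to Krt19, so this shared order follows from the choice. Over 4 arrays such likeness is a description of these lines and not a test.

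**Figure D3:**
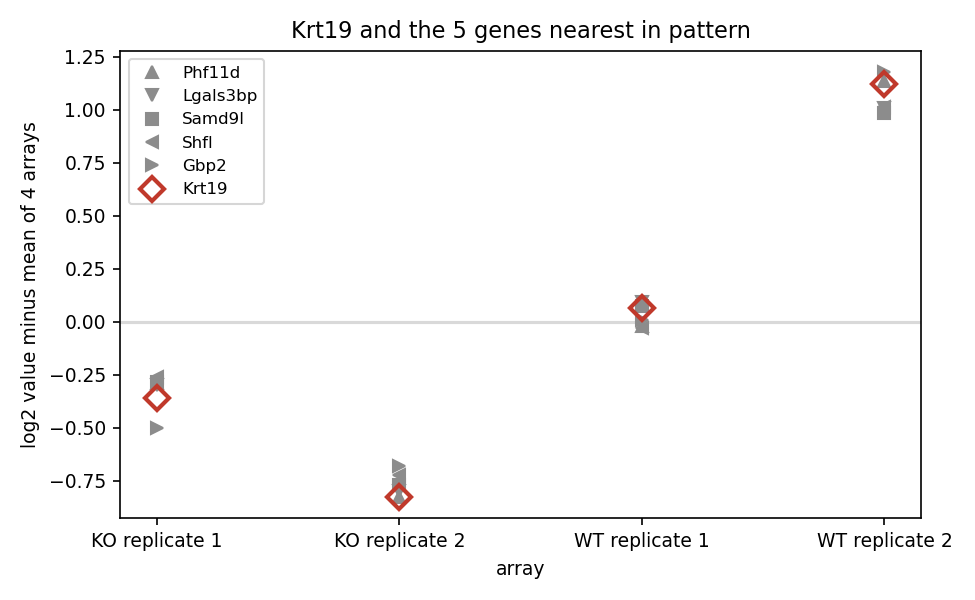
Log2 value minus the mean of the 4 arrays for Krt19 (red diamonds) and the 5 genes nearest to it in pattern (grey), by array. In each of the 6 genes KO replicate 2 is lowest and WT replicate 2 is highest.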

How the data were processed

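Total RNA from 2 KO and 2 WT MEF lines was hybridized to Illumina MouseRef-8 arrays, 1 per line. The authors summarised the beads in GenomeStudio and deposited a signal intensity per probe, with no background subtracted and no scaling, and a detection p-value beside each. A table of intensities scaled by the authors, each array multiplied by 1 factor to a common mean of 337, was used as an alternative only. A genome build was not needed, except for the RefSeq promoters.

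Starting from the unscaled intensities, limma 3.58.1 under R 4.3.3 corrected background by normexp from the detection p-values, added an offset of 16, quantile-normalized and took log2. A probe entered the model (lmFit, then eBayes; two-sided) if 2 or more arrays had a detection p below 0.05, which left 2 residual degrees of freedom and 4.86 from the prior, with Benjamini-Hochberg adjustment over 11552 probes. Gene symbols came from the platform annotation through Entrez identifiers: 23978 probes had 1 gene, 0 several and 1719 none. A gene was its brightest tested probe. With 2 arrays a genotype, the number of arrays limits precision. The fit was also run on simulated normal values with known folds added. That simulation did not model the detection filter, and no result here rests on it.

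The 10 genes and the other lists were chosen with earlier results of these data known. Named beside the 10 genes were H3f3b and, in each list, from among up to 4 tested genes with the largest differences. Vim, Col1a1, Pdgfra, Thy1, Zeb1, Snai1, Cldn7, Upk3b, Bnc1 and Gpm6a were added after their values were seen. They were added for detection only, except Zeb1 and Snai1, whose differences are also given. Where a genotype had no detected array, the fold was taken against the dimmest detected value and is a lower bound on the scale used. Alternatives tried were: omitting background correction (a floor of 16), an offset of 50, scaling to the median, the authors' scaled intensities, testing every probe, keeping only probes below a detection p of 0.01 on the 4 arrays, a trended robust eBayes, a replicate block for line number, averaging probes, and dropping each array in turn.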

Additional observations from a re-analysis of the deposited data

How the results depend on the processing

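No setting called any of the 9 genes with a probe or any gene of the other lists. The count of genes called was 1, and became 0 with the strict detection filter, which removes H3f3b because KO lacks it, 20 with trend and robust variances, and 1 to 21 when an array was left out, 21 without WT replicate 1. With the line number as a replicate block it was 2. The numbers are not known to pair the lines: the difference between KO replicates correlated with that between WT replicates at r = -0.036 over 11552 probes, and the block changed no other call.

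The number of the 10 genes tested was 1 with the strict filter (Llgl2) and 7 when an array was left out. Their median difference was -0.062 in the table scaled by the authors, 0.72 with the strict filter, where it is Llgl2 alone, and 0.11 to 0.26 when an array was left out. Median scaling moved the median of all genes to 0.19. In the table scaled by the authors, differences turned negative for Krt18 (-0.062), Cldn1 (-0.032), Tjp1 (-0.037), Cldn9 (-0.020), Krt80 (-0.043), Ovol2 (-0.090) and Wt1 (-0.10). With median scaling they turned positive for Krt10 (0.068) and Klf5 (0.086), and the mesenchyme median was 0.00049. When an array was left out, differences ranged from -0.34 to 0.074 for Krt8, -0.66 to 0.072 for Krt7, -0.29 to 0.043 for Cdh1, -0.11 to 0.62 for Cldn9, -0.12 to 0.49 for Llgl1, -0.042 to 0.35 for Ovol2, -0.28 to 0.029 for Klf5 and -0.084 to 0.30 for Wt1, and medians from -0.018 to 0.20 for polarity and -0.38 to 0.054 for mesenchyme genes. The cause was not tested. The rule for named genes picked 27 genes of the other lists, not all of them named here, and 20 of the 27 kept their direction under all 13 alternatives. Signals close to background limit the values of all 9 genes with a probe.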
